A study of Mus musculus with 8 samples.

Results

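Most messenger RNAs for the mitochondrial ribosome were more abundant in spleen Cxcr2-/- neutrophils than in WT neutrophils. Of the 77 mitochondrial ribosomal protein genes that could be tested, 49 rose in Cxcr2-/- neutrophils, 1 fell and 27 did not pass the test. The median log2 fold change was 0.66, against 0.01 over all 16778 genes tested and 0.10 over the 12151 protein-coding genes among them. The proteins were taken as every protein-coding gene of GENCODE M21 (mouse genome GRCm38) whose symbol starts with Mrpl, for the large subunit, or Mrps, for the small subunit. The rule used no measured value and found 78 of the 55414 genes listed: 49 Mrpl genes and 29 Mrps genes, spread over 17 chromosomes.

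Mitochondria keep a small genome, and its messenger RNAs are translated inside the organelle by a ribosome of their own. The RNA of this ribosome is made from mitochondrial DNA, whereas all of its proteins are encoded in the nucleus, made in the cytosol and imported. Some of these proteins have a counterpart in the bacterial ribosome and the others occur only in mitochondria. The products of mitochondrial translation are subunits of the respiratory chain and of ATP synthase. Mature neutrophils are known for relying mostly on glycolysis, while their dividing precursors in the bone marrow hold more active mitochondria.

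The libraries came from neutrophils of the spleen of 10-week-old mice on the FVB background, kept in a specific and opportunistic pathogen free facility. Spleen cells were enriched for CD11b and then sorted as CD45+ CD11b+ Ly6G+ F4/80- cells. There were 4 WT libraries and 4 Cxcr2-/- libraries, 1 from each mouse, so the replicates are separate animals. The Cxcr2-/- mice lack the chemokine receptor Cxcr2 in every cell from birth, so that a change may arise in the neutrophil itself or in its surroundings, and these cannot be told apart here. RNA was sequenced after depletion of ribosomal RNA. Counts on genes ran from 34220182 to 46233555 in WT and from 37549648 to 43789253 in Cxcr2-/- libraries.

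CPM are a gene's counts in a library brought to 1000000 counts on the genes tested, then scaled between libraries by the TMM method. The targeted gene matched the labels: Cxcr2 stood at 1719 to 2252 CPM in WT and at 12.9 to 20.7 CPM in Cxcr2-/- libraries. A gene passed where edgeR's quasi-likelihood test gave an adjusted p under 0.05 (Benjamini-Hochberg, over all 16778 genes tested), and this test stands behind every adjusted p below. Fold changes are Cxcr2-/- over WT. The gene set moved against a wide background, since 23.7% of all genes tested were higher in Cxcr2-/- neutrophils and 21.0% were lower at this threshold. These were 3969 and 3526 genes (with total counts 3248 and 4080, with upper-quartile scaling 3076 and 4391). All members are protein-coding by the rule, and of the 12151 protein-coding genes tested 29.8% were higher and 20.1% lower. For protein-coding genes in the members' range of average log2 CPM these shares were 31.1% and 18.2%, with a median log2 fold change of 0.13.

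Among the Mrpl genes, 32 of 48 tested rose (66.7%), 1 fell and 15 did not pass. Their median log2 fold change was 0.66. Of those that did not pass, 10 had a positive and 5 a negative log2 fold change. Over both subunits the fold change was positive for 68 members. It was positive for 50.7% of all genes tested and for 6810 of the 12151 protein-coding ones. Of the Mrps genes, 17 of 29 rose (58.6%), 0 fell and 12 did not pass, and the median was 0.68. No Mrps gene was lower at an unadjusted p under 0.05 in edgeR (0 of 29) or with DESeq2 (0). With a further demand for a 1.5-fold change, 28 Mrpl and 16 Mrps genes remained higher and 0 were lower. Of all genes 15.7% were higher and 15.7% lower, and of the 12151 protein-coding genes 2308 and 1624 were. The same changes are drawn gene by gene in the plot of fold changes, and against all genes in the plot of cumulative shares.

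**Figure D1:**
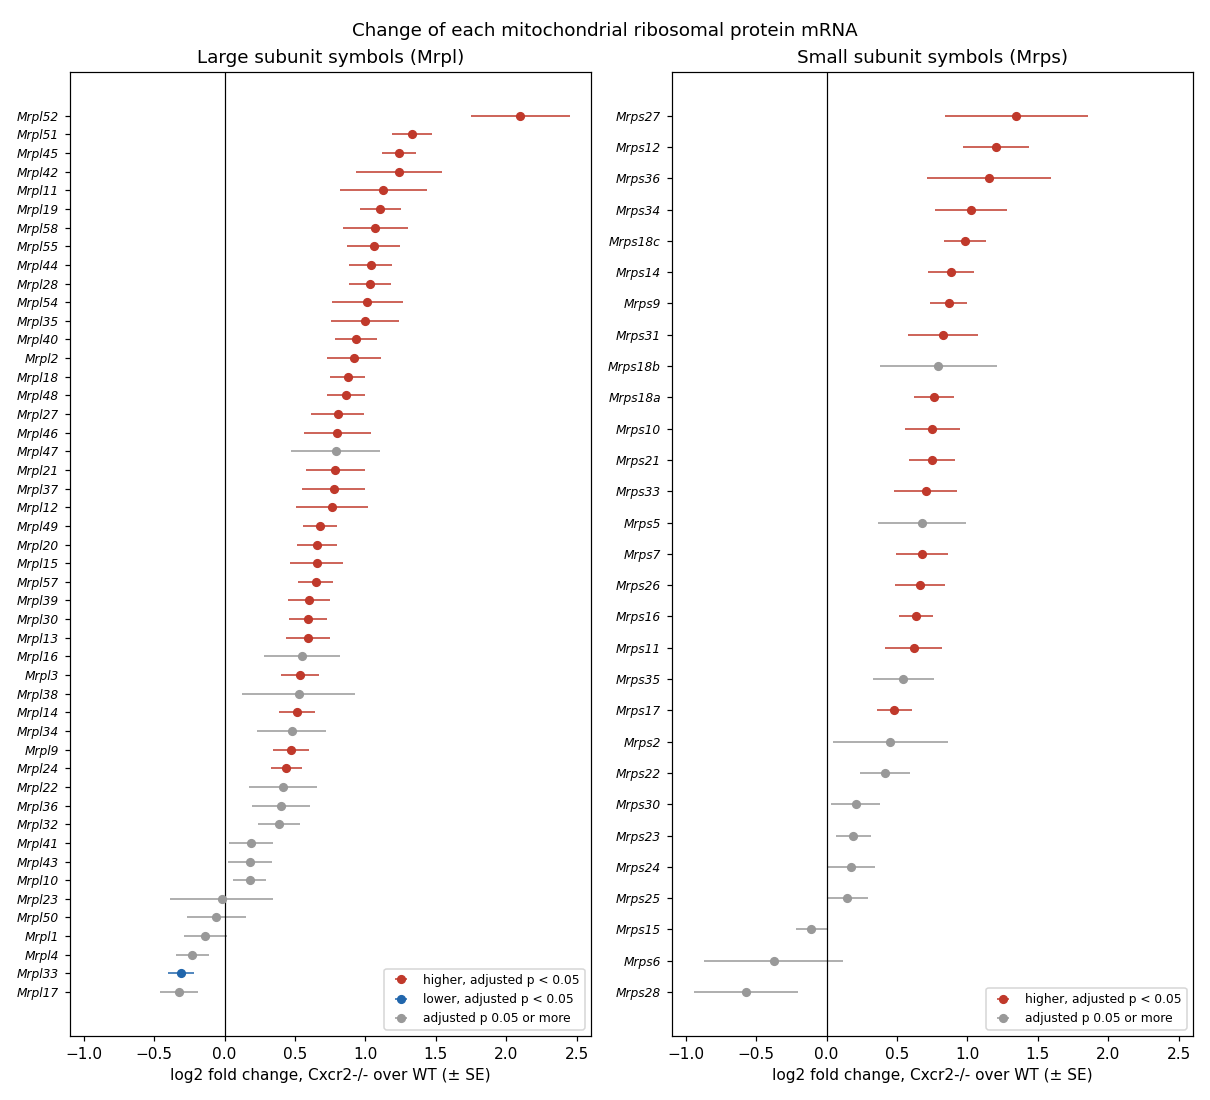
Log2 fold change (x axis, Cxcr2-/- over WT, ± SE from the edgeR fit of 4 against 4 libraries) of the 48 tested Mrpl genes (left) and the 29 Mrps genes (right), ordered by size. Red marks the 32 and 17 genes that rose, blue the 1 that fell (Mrpl33) and grey those with an adjusted p of 0.05 or more.

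**Figure D2:**
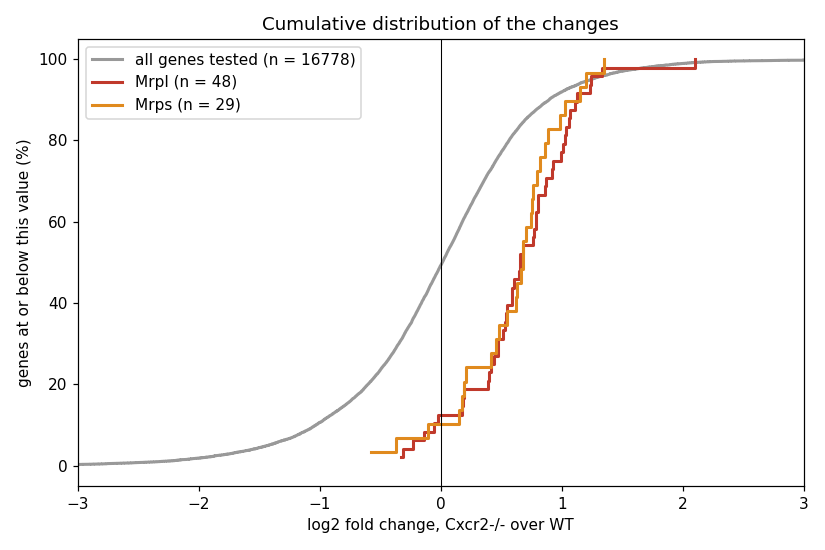
Cumulative share of genes (y axis, %) at or below each log2 fold change (x axis, Cxcr2-/- over WT) for all 16778 genes tested, the 48 Mrpl genes and the 29 Mrps genes. Both gene groups lie to the right of all genes, with medians of 0.66 and 0.68 against 0.01, and run close to each other; the x axis is limited to -3 to 3.

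The 2 genotypes separated in most members. In 47 members every Cxcr2-/- library lay above every WT library, and in 1 every one lay below. In these directions 22.5% and 19.1% of all genes separated, and 3453 and 2244 of the 12151 protein-coding genes. The coefficient of variation between libraries of a group had a median of 13.6% in WT and 13.5% in Cxcr2-/- over the members. The median Mrpl gene lay at 0.08, -0.02, 0.05 and -0.10 in WT replicates 1 to 4 and at 0.49, 0.41, 0.69 and 0.56 in Cxcr2-/- replicates 1 to 4, on the scale of log2(CPM + 1) relative to the WT mean. Cxcr2-/- replicate 3 was the highest of its group in 40 of 77 members, and WT replicate 4 was the lowest of its group in 36.

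Other measures of the libraries moved with genotype. In a WT library at most 11.6% of all gene counts came from its 10 most abundant genes, whereas the highest such share in a Cxcr2-/- library was 19.2%, with no overlap between genotypes, and the part of this in the results was not tested. The share of read pairs that fell outside genes was 31.4 to 41.5% in WT and 26.7 to 31.9% in Cxcr2-/- libraries. With this share as a covariate in edgeR, 9 Mrpl and 3 Mrps genes still passed as higher, while over all genes 1597 were higher and 1486 lower. The medians were then 0.68 and 0.61. Mrpl19, Mrpl42, Mrpl45, Mrpl51 and Mrps18c were among the 12. Of the WT libraries, replicate 1 had the lowest share (31.4%) and the highest median Mrpl gene (0.08). Cxcr2-/- replicate 4 had nearly the same share (31.9%), and its median Mrpl gene lay at 0.56. The part of this share in the results was not tested.

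The sorted cells carried the defining genes of neutrophils in every library, but these moved too. Of 11 such markers 7 were higher, among them Ly6g, S100a8 and S100a9, and 3 were lower (Csf3r, Il1b and the targeted Cxcr2). Their summed level was 37325 to 53728 CPM in WT and 72991 to 88011 CPM in Cxcr2-/- libraries, with no overlap. Genes of neutrophil precursors, such as Mpo and Elane of the primary granules and Ltf and Camp of the secondary granules, were higher for 11 of 11, with a summed level of 21919.7 to 26708 CPM in WT and 51512 to 73875 CPM in Cxcr2-/- libraries. Genes of dividing cells, such as Mki67 and Top2a, were higher for 9 of 10, against 23.7% of all genes tested. The summed level of these 10 was 358 to 403 CPM in WT and 940.1 to 1048 CPM in Cxcr2-/- libraries. The remaining marker moved the other way, by -0.43 on the log2 scale, and just missed the threshold (adjusted p = 0.058). It passed as lower with DESeq2, RLE or upper-quartile scaling, without the filter, with protein-coding genes alone and with the replicate block. With total counts, at least 10 counts in every library or either covariate it did not. The part of these shifts in the change of the mitochondrial ribosomal protein genes was not tested. In Cxcr2-/- replicates 1 to 4 the precursor sum was 73875, 62206, 60142 and 51512 CPM. The median Mrpl gene of these libraries lay at 0.49, 0.41, 0.69 and 0.56, and how the sum and this median relate was not tested. The precursor sum is carried by its most abundant genes, since the median gene of that list stood at 96.3 CPM in Cxcr2-/- libraries. In RNA from a population, a change in the share of a cell type and a change of RNA in each cell cannot be told apart.

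The summed markers of each other cell type were low against those of neutrophils, but not all were low against the members. All Mrpl genes together summed to 359 to 398 CPM in WT and 452 to 488 CPM in Cxcr2-/- libraries. B cell markers were lower for 7 of 8, with a sum of 39.7 to 91.4 CPM in WT and 18.2 to 42.2 CPM in Cxcr2-/- libraries. Of 10 macrophage and monocyte markers 2 were lower and 1 higher, with sums of 461 to 557 CPM and 217 to 356 CPM. T and NK cell markers summed to 99.5 to 119.7 CPM and 92.2 to 140.3 CPM (2 of 6 tested lower), eosinophil markers to 48.8 to 71.9 CPM and 42.6 to 72.0 CPM (2 of 6 higher, 1 lower), and dendritic cell markers to 8.76 to 33.3 CPM and 6.56 to 11.1 CPM (1 of 5 lower). Platelet markers summed to 15.3 to 20.7 CPM and 10.3 to 15.1 CPM (2 of 3 lower), with Pf4 and Ppbp at 0 to 6 counts in a library. Erythroid markers summed to 2.11 to 4.68 CPM and 1.72 to 12.2 CPM (0 of 4 passed, with Hba-a2 and Klf1 at 0 to 6 counts). With the mean level of the markers of non-neutrophil cells as a covariate, 35 Mrpl and 21 Mrps genes were higher, and all 50 members that had passed still did.

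The starts of 3 members are shown here because they are the Mrpl gene with the largest rise, the Mrps gene with the second largest rise, which faces another mitochondrial translation gene, and the only member that fell. The sequences are from RefSeq (GRCm38.p6), from 250 bases before the annotated start to 30 after it, on the gene's own strand. Capitals mark CCGGAAG, the core bound by ETS factors such as GABP, and AAGATGGC, the core bound by YY1, on either strand. GCATGCGC, the core bound by NRF1, was marked in the same way. No 2 of the marked motifs overlap.
Mrpl52 (chr14:54426659-54426938, + strand): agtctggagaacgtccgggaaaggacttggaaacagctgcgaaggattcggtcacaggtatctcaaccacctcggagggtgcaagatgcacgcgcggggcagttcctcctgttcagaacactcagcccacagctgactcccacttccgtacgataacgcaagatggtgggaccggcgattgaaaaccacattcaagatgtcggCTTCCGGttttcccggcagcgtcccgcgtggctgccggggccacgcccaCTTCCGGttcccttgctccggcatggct
Mrps12 (chr7:28741792-28742071, - strand): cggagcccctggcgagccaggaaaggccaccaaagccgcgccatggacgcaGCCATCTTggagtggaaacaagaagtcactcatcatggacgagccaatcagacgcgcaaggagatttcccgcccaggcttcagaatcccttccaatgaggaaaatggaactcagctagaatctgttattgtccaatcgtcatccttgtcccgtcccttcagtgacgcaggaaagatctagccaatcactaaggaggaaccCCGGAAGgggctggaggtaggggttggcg
Mrpl33 (chr5:31613701-31613980, + strand): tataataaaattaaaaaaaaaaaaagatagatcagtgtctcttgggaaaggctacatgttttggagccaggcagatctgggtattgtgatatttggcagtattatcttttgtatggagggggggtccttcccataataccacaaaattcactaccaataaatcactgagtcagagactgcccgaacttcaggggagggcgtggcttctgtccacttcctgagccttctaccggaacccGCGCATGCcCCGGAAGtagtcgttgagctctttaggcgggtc
The ETS core lay at offsets -47 and 2 from the start in Mrpl52, at 1 in Mrps12 and at -3 in Mrpl33, where the start base is 0. Mrpl33 also held the NRF1 core, at -12. In Mrps12 the YY1 core at -199 lies past the facing start of Sars2.

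Promoter windows of 300 bases (250 before the start, 50 after) were found in RefSeq for 69 of the 78 members, 75 windows in all. CCGGAAG occurred in 26 of them (34.7%), against 8.86% of all windows and 11.6% of those of protein-coding genes. AAGATGGC occurred in 16.0%, against 2.75% of all windows, and GCATGCGC in 10.7%, against 2.71%. The windows of the members held a median of 58.7% G and C, against 52.7% for all windows, and TATAAA stood in 5.33% of them, against 8.32%. At least 1 of the first 3 motifs was present in 25 of the 44 members with a window that rose, in 11 of 23 that did not pass and in the 1 that fell. Taken singly, the ETS core was present in 17 of the 44, 7 of the 23 and the 1 that fell. The YY1 core was present in 9 of the 44, 3 of the 23 and not in the 1 that fell, and the NRF1 core in 2 of the 44, 5 of the 23 and the 1 that fell. These shares were not compared by a test.

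Mrpl52 had the largest change of any member. It encodes a mitochondria-specific protein of the central protuberance, the crest of the large subunit that faces the small one. At chr14:54426909-54429756 it stood at 1.37, 0.844, 1.07 and 0.521 CPM in WT replicates 1 to 4 and at 2.96, 2.88, 7.01 and 3.60 CPM in Cxcr2-/- replicates 1 to 4. The genotypes did not overlap, and Cxcr2-/- replicate 3 lay well above the rest. Its log2 fold change was 2.10 (SE 0.35, adjusted p = 3.8e-04), and without that library it was 1.70.

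Mrpl51 and Mrpl45 changed less and far more evenly. Mrpl51, a mitochondria-specific protein of the large subunit (chr6:125191801-125196269), stood at 4.82, 4.48, 5.93 and 4.14 CPM in WT and at 11.8, 12.6, 12.2 and 12.2 CPM in Cxcr2-/- libraries. Its levels did not overlap, and the log2 fold change was 1.33 (SE 0.14, adjusted p = 1.0e-05). Mrpl45, which sits by the exit of the peptide tunnel and holds the ribosome at the inner membrane (chr11:97315716-97329920), stood at 9.09, 10.7, 11.9 and 9.49 CPM in WT and at 25.4, 27.1, 21.5 and 23.2 CPM in Cxcr2-/- libraries. It was the member with the lowest adjusted p, at 5.4e-06, with a log2 fold change of 1.24 (SE 0.12).

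The next largest rises among the Mrpl genes were those of Mrpl42, Mrpl11 and Mrpl19. Mrpl42, a mitochondria-specific protein, went from 1.56 ± 0.465 CPM in WT to 3.67 ± 1.33 CPM (SD, n = 4 each), a log2 fold change of 1.24 (SE 0.30, adjusted p = 0.0054). Mrpl19, the counterpart of a bacterial protein at the subunit interface, went from 4.93 ± 0.635 to 10.6 ± 0.959 CPM, a log2 fold change of 1.11 (SE 0.14, adjusted p = 5.3e-05). For Mrpl19, 36% of the exon bases overlap Gcfc2 on the other strand, and the strand setting of the counting is not given in the sources used here. Mrpl58, a peptidyl-tRNA hydrolase built into the large subunit that frees stalled ribosomes, rose from 1.44 ± 0.373 to 3.02 ± 0.41 CPM, a log2 fold change of 1.07 (SE 0.23, adjusted p = 0.0024).

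By place in the large subunit, the central protuberance had 7 of 8 tested genes higher (87.5%, median log2 fold change 0.90). The tunnel exit had 2 of 6 (33.3%, Mrpl24 and Mrpl45, median 0.43), near the shares of 23.7% over all genes and 29.8% over protein-coding genes. The stalk, which recruits the factors that drive translation, had 3 of 4 tested genes higher (75%, median 0.89). With the share of pairs outside genes as a covariate the numbers higher in these 3 places were 2, 1 and 0. Mrpl11, at the base of the stalk, stood at 0.752, 0.985, 0.855 and 0.405 CPM in WT and at 1.52, 1.30, 2.31 and 1.48 CPM in Cxcr2-/- libraries, with no overlap and a log2 fold change of 1.13 (SE 0.31, adjusted p = 0.010). Mrpl12, the stalk protein that binds the factors, stood at 1.79, 2.37, 2.0 and 1.33 CPM in WT and at 2.63, 2.21, 4.12 and 3.82 CPM in Cxcr2-/- libraries. These groups overlapped, since Cxcr2-/- replicate 2 lay under WT replicate 2, and the log2 fold change was 0.76 (SE 0.25, adjusted p = 0.027). Without any 1 of WT replicates 1, 3 and 4 or Cxcr2-/- replicates 3 and 4 its adjusted p was above 0.05, up to 0.089. Mrpl10, which anchors Mrpl12, is far more abundant per length than either and stood at 26.7, 18.4, 24.2 and 20.4 CPM in WT and at 25.8, 24.6, 25.4 and 25.8 CPM in Cxcr2-/- libraries. It did not pass the test, with a log2 fold change of 0.18 (SE 0.12, adjusted p = 0.24). The differences between these 3 places were not tested.

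**Figure D3:**
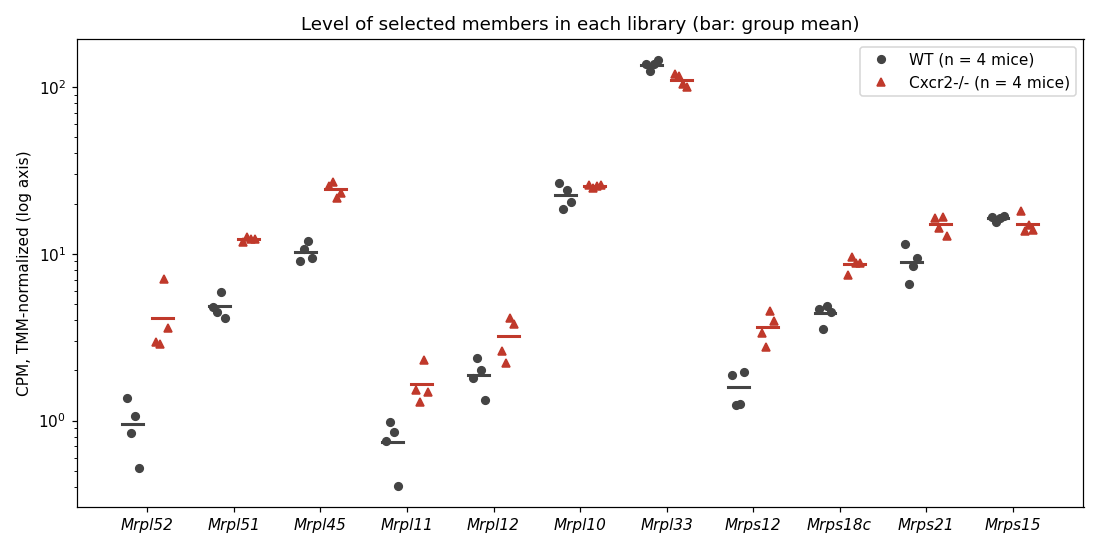
Level of 11 members in each of the 8 libraries (y axis, TMM-scaled CPM, log axis; circles WT, triangles Cxcr2-/-, bars the mean of 4 libraries). Mrpl51, Mrpl45, Mrps12 and Mrps18c separate fully upwards and Mrpl33 fully downwards, while Mrpl12, Mrpl10 and Mrps15 overlap between genotypes.

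Mrpl33 was the only member that fell. It encodes a small protein with a bacterial counterpart, and its locus in the annotation spans 67450 bases (chr5:31596935-31664384) with several long transcripts beside the short coding one. It stood at 137, 125, 138 and 145 CPM in WT and at 119, 116, 103 and 100.4 CPM in Cxcr2-/- libraries. The groups did not overlap, and the log2 fold change was -0.31 (SE 0.09, adjusted p = 0.014). Without WT replicate 4 the adjusted p was 0.052, and with the share of pairs outside genes as a covariate it was 0.11.

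Mrpl33 was also the most abundant member, so that it weighed on every sum. It made up 36.1% ± 2.19 of the summed Mrpl CPM in WT and 23.7% ± 2.35 in Cxcr2-/- libraries (SD, n = 4). All Mrpl genes summed to 378 ± 17.7 CPM in WT libraries, and Cxcr2-/- libraries, at 464 ± 16.4 CPM, were 1.23 times as high. Without Mrpl33 it was 242 ± 16.4 and 354 ± 21.1 CPM, 1.46 times as high. The summed Mrps level was 112 ± 7.08 and 159 ± 8.41 CPM, 1.41 times as high. The ratio of Mrps to Mrpl sums went from 0.297 to 0.342 with Mrpl33 and from 0.465 to 0.448 without it, so its direction turned on this 1 gene. Together the members took 0.0505% of all gene counts of WT libraries and 0.0603% of those of Cxcr2-/- libraries.

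The Mrpl genes nearest to no change were Mrpl23, Mrpl50 and Mrpl1. Mrpl23, at the tunnel exit, had a log2 fold change of -0.02 (SE 0.37, adjusted p = 0.97) at 0.487 ± 0.123 CPM in WT, a level too low to bound it closely. Mrpl50, a mitochondria-specific protein, had -0.06 (SE 0.21, adjusted p = 0.84), and Mrpl1, on the stalk that guides spent tRNA out of the ribosome, had -0.14 (SE 0.15, adjusted p = 0.49). Of the abundant Mrpl14, at the interface between the subunits, the level rose from 7.26 ± 0.49 to 10.4 ± 1.14 CPM (log2 fold change 0.51, SE 0.13, adjusted p = 0.0062). Mrpl53 of the stalk could not be tested. It was listed with 0 counts in all WT libraries and at most 1 in a Cxcr2-/- library, and 88.0% of its exon bases (chr6:83109040-83109939) overlap Gm42688 on the same strand.

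Of the Mrps genes, Mrps27 had the largest fold change and one of the weakest calls. It encodes an RNA-binding protein of the small subunit and stood at 0.464, 0.281, 0.615 and 0.116 CPM in WT and at 0.607, 0.498, 1.75 and 0.924 CPM in Cxcr2-/- libraries. The groups overlapped, the lowest library held 4 counts, and the log2 fold change was 1.35 (SE 0.51, adjusted p = 0.046). It fell to 0.86 with an adjusted p of 0.20 without Cxcr2-/- replicate 3, and the adjusted p was also above 0.05 without WT replicate 1, 2 or 4 or Cxcr2-/- replicate 4. Mrps36 was of the same kind. Its product was once counted as a ribosomal protein but belongs to the alpha-ketoglutarate dehydrogenase complex. It stood at 0.177, 0.221, 0.267 and 0.174 CPM in WT and at 0.253, 0.304, 0.686 and 0.632 CPM in Cxcr2-/- libraries, with an overlap, a log2 fold change of 1.15 (SE 0.44) and an adjusted p of 0.049. That call was lost when any 1 of WT replicates 1 to 4 or Cxcr2-/- replicates 3 and 4 was left out, with an adjusted p of up to 0.17.

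Mrps12 had the second largest fold change of the Mrps genes, with no overlap between genotypes. It forms part of the decoding centre, where the codon is read, and is the counterpart of the bacterial protein in which streptomycin resistance arises. At chr7:28739641-28741820 it stood at 1.88, 1.25, 1.26 and 1.97 CPM in WT and at 3.36, 2.77, 4.52 and 3.94 CPM in Cxcr2-/- libraries. The log2 fold change was 1.20 (SE 0.24, adjusted p = 0.0012), and the adjusted p was 0.11 with the share of pairs outside genes as a covariate. Mrps14, in the head of the small subunit, rose from 5.54 ± 0.878 to 10.2 ± 1.48 CPM (log2 fold change 0.88, SE 0.16, adjusted p = 7.5e-04). Mrps34, a mitochondria-specific protein needed for a stable small subunit, rose from 0.804 ± 0.129 to 1.64 ± 0.318 CPM (log2 fold change 1.03, SE 0.25, adjusted p = 0.0056). For Mrps34, 63.4% of the exon bases overlap Mapk8ip3 on the other strand and 37.0% overlap Nme3 on the same strand, so its counts are uncertain.

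The most abundant Mrps genes per length were Mrps21, Mrps15 and Mrps23, and they did not share a direction. Mrps21, at 16.2 CPM per kb of exon, stood at 11.4, 6.61, 8.47 and 9.40 CPM in WT and at 16.4, 14.4, 16.7 and 12.7 CPM in Cxcr2-/- libraries, with a log2 fold change of 0.75 (SE 0.16, adjusted p = 0.0026). Mrps15, at 9.28 CPM per kb, stood at 16.6, 15.6, 16.4 and 16.7 CPM in WT and at 18, 13.7, 14.9 and 13.9 CPM in Cxcr2-/- libraries. The groups overlapped, with a log2 fold change of -0.11 (SE 0.11, adjusted p = 0.46). Mrps23, at 6.80 CPM per kb, had a log2 fold change of 0.19 (SE 0.12, adjusted p = 0.24). Mrps24 and Mrps25 were also near no change, at 0.17 (SE 0.17) and 0.15 (SE 0.15), with adjusted p-values of 0.43 and 0.44. For Mrps25, 69.8% of the exon bases overlap Nr2c2 on the other strand.

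Abundance was also set beside change. Spearman's rho with the log2 fold change was -0.15 for mean CPM per kb and -0.28 for mean CPM across the 77 genes, which share the 8 libraries and are not independent replicates. Over all 12151 protein-coding genes tested the rho for mean CPM was -0.00044. Of the 19 members with the highest mean CPM per kb 10 rose, with a median log2 fold change of 0.44. Of the 19 with the lowest 9 rose, with a median of 0.75. Over all genes tested 23.7% rose. On the Mrpl side the most abundant genes per length were Mrpl33 (16.8 CPM per kb), Mrpl10 (14.0) and Mrpl14 (9.28).

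**Figure D4:**
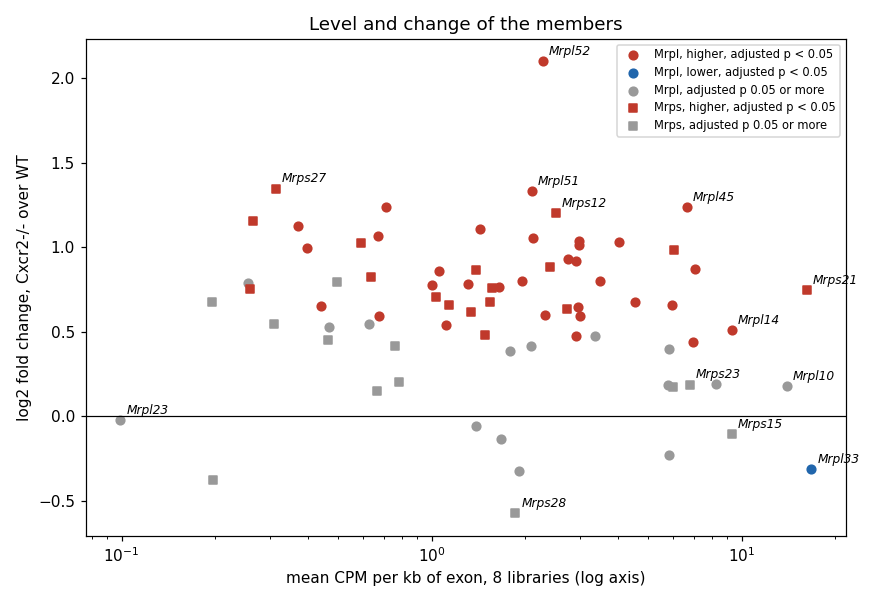
Mean level over the 8 libraries (x axis, CPM per kb of exon, log axis) against log2 fold change (y axis, Cxcr2-/- over WT) for the 77 tested members; circles are Mrpl and squares Mrps genes, red higher, blue lower and grey not passed. The most abundant genes Mrpl33, Mrps21 and Mrpl10 lie at -0.31, 0.75 and 0.18.

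Mammals have 3 proteins descended from the bacterial protein S18, and each has its own place: Mrps18a in the large subunit, Mrps18b and Mrps18c in the small one. Mrps18a (chr17:46110986-46128910) stood at 4.51, 4.60, 4.36 and 3.64 CPM in WT and at 7.31, 7.22, 7.70 and 6.81 CPM in Cxcr2-/- libraries. Mrps18c (chr5:100798627-100804471) stood at 4.69, 3.54, 4.86 and 4.45 CPM in WT and at 7.51, 9.55, 8.77 and 8.80 CPM in Cxcr2-/- libraries. Both rose without overlap, with log2 fold changes of 0.76 (SE 0.14, adjusted p = 8.9e-04) and 0.98 (SE 0.15, adjusted p = 2.2e-04). Mrps18b (chr17:35910379-35916389) stood at 0.508, 0.824, 1.15 and 0.550 CPM in WT and at 1.26, 0.443, 1.93 and 1.60 CPM in Cxcr2-/- libraries, with an overlap and a log2 fold change of 0.79 (SE 0.42, adjusted p = 0.14). Cxcr2-/- replicate 2 was the lowest of all 8 libraries for Mrps18b, and without it the log2 fold change was 1.08 with an adjusted p of 0.024.

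The 3 paralogues were compared by their log2 ratios within each library, which need no scaling between libraries. The Mrps18a/Mrps18c ratio was -0.03 ± 0.29 in WT and -0.25 ± 0.17 in Cxcr2-/- libraries (SD, n = 4), a difference of -0.22. The Mrps18a/Mrps18b ratio differed by 0.09 and the Mrps18b/Mrps18c ratio by -0.31. None of the 3 differences passed an exact two-sided permutation test (p = 0.26, 0.86 and 0.71, and 0.77, 0.86 and 0.86 adjusted over the 3), where 4 against 4 libraries allow no p under 0.029. Leaving out 1 library gave differences of -0.31 to -0.08, -0.37 to 0.31 and -0.55 to 0.20.

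Counted by structure rather than by symbol, Mrps18a and Mrps30 belong to the large subunit and Mrps36 to neither. The large subunit then had 33 of 50 tested genes higher and 1 lower (median 0.66), and the small subunit 15 of 26 higher and 0 lower (median 0.67). Mrps30 itself had a log2 fold change of 0.20 (SE 0.17, adjusted p = 0.36). Of the genes with a bacterial counterpart, 28 of 46 tested rose and 1 fell, with a median of 0.61. Of the mitochondria-specific ones 20 of 30 rose and 0 fell, with a median of 0.77. The difference between these groups was not tested. Of all genes tested 23.7% were higher and 21.0% lower, and of protein-coding genes 29.8% and 20.1%. In the split by bacterial counterpart Mrps18c had one, and Mrps18a and Mrps18b were counted as mitochondria-specific, although they too descend from S18.

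A further 5 subunits carry other symbols. Chchd1, a small protein of the small subunit, rose from 1.71 ± 0.219 to 3.67 ± 0.303 CPM (log2 fold change 1.10, SE 0.19, adjusted p = 4.2e-04). Aurkaip1, also of the small subunit, rose from 28.5 ± 3.65 to 37.9 ± 2.09 CPM (log2 fold change 0.41, SE 0.11, adjusted p = 0.0070). Gadd45gip1, of the large subunit, rose from 0.338 ± 0.0991 to 0.751 ± 0.305 CPM (log2 fold change 1.14, SE 0.40, adjusted p = 0.034), but its adjusted p was above 0.05, up to 0.11, when any 1 of WT replicates 1, 3 and 4 or Cxcr2-/- replicates 1, 2 and 4 was left out. Dap3, a GTP-binding protein of the small subunit, had a log2 fold change of -0.18 (SE 0.09, adjusted p = 0.13) and passed as lower with total counts, with upper-quartile scaling and with protein-coding genes alone. Ptcd3, an RNA-binding protein of the small subunit, had 0.32 (SE 0.15, adjusted p = 0.094).

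The genes that work with the ribosome are given list by list. Of all genes tested 23.7% were higher and 21.0% lower, and of protein-coding genes 29.8% and 20.1%. Of 12 translation factors 7 rose (58.3%) and 0 fell, with a median of 0.61. Gfm1, elongation factor G, went from 3.65 ± 0.631 to 8.02 ± 1.10 CPM (log2 fold change 1.14, SE 0.17, adjusted p = 1.8e-04), and Tufm, elongation factor Tu, from 3.98 ± 0.48 to 7.43 ± 1.10 CPM (log2 fold change 0.90, SE 0.16, adjusted p = 6.7e-04). Of 24 assembly factors 5 rose and 0 fell (20.8%, near the share of all genes; 1 was lower at an unadjusted p under 0.05 and with DESeq2), with a median of 0.31. Eral1, a chaperone of the small subunit's RNA, rose by 1.15 on the log2 scale (SE 0.20, adjusted p = 4.6e-04), and Mterf4, which directs an RNA methyltransferase to the ribosome, by 0.82 (SE 0.17, adjusted p = 0.0021).

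Of 22 genes that charge mitochondrial tRNAs 9 rose (40.9%) and 2 fell (9.09%), with a median of 0.37. Over all genes 23.7% rose and 21.0% fell, and over protein-coding genes 29.8% and 20.1%. Of the 22 genes 4 rose with total counts and 5 with upper-quartile scaling, under which 3 fell. Lars2, the leucine enzyme, went from 23.6 ± 10.9 to 78.5 ± 16.2 CPM (log2 fold change 1.73, SE 0.29, adjusted p = 3.5e-04), and Sars2, the serine enzyme, from 0.578 ± 0.297 to 1.64 ± 0.247 CPM (1.49, SE 0.35, adjusted p = 0.0041). In the other direction, Nars2, the asparagine enzyme, had a log2 fold change of -1.76 (SE 0.39, adjusted p = 0.0030) and Mars2, the methionine enzyme, of -0.68 (SE 0.20, adjusted p = 0.016). Of 16 tested genes that copy mitochondrial DNA or handle its transcripts 4 rose and 0 fell, with a median of 0.23. The share that rose was 25%, near the 23.7% of all genes and under the 29.8% of protein-coding genes. At an unadjusted p under 0.05 in edgeR, and with DESeq2, 1 was lower. Hsd17b10, a part of mitochondrial RNase P, rose by 1.14 on the log2 scale (SE 0.15, adjusted p = 7.5e-05), and Lrpprc, which stabilises mitochondrial messenger RNAs, by 0.68 (SE 0.23, adjusted p = 0.030). The Lrpprc call was lost, with an adjusted p of up to 0.075, when any 1 of WT replicates 1, 3 and 4 or Cxcr2-/- replicates 3 and 4 was left out.

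The covariate for pairs outside genes lowered these counts as well. With it 3 translation factors, 1 assembly factor, 3 genes that charge tRNAs and 1 gene of mitochondrial DNA and its transcripts were higher, 0 of the 5 subunits with other symbols were, and 0 genes of these lists were lower. Gfm1, Tufm and Hsd17b10 still passed. Lars2 (adjusted p = 0.093), Sars2 (adjusted p = 0.052), Mars2 (adjusted p = 0.23) and Nars2 (adjusted p = 0.60) did not, and neither did Eral1, Mterf4, Lrpprc, Chchd1 and Aurkaip1.

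Of 7 tested regulators of nuclear genes for mitochondria 0 rose, at an unadjusted p under 0.05 in edgeR and with DESeq2 as well, and 1 fell. With the non-neutrophil covariate 1 rose. With total counts or protein-coding genes alone 2 fell, and with upper-quartile scaling 3. Of all genes tested 23.7% were higher and 21.0% lower, which for 7 genes is too few to set 0 apart. The tested regulators included Nrf1, Gabpa and Yy1, the factors behind the searched motifs. Gabpb1, the partner of Gabpa in GABP, had a log2 fold change of -0.24 (SE 0.08, adjusted p = 0.038), a call that was lost (adjusted p up to 0.077) on leaving out any library other than WT replicate 1 or Cxcr2-/- replicate 2. Myc, a general activator of ribosome genes, had a log2 fold change of -0.37 (SE 0.50, adjusted p = 0.58).

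**Figure D5:**
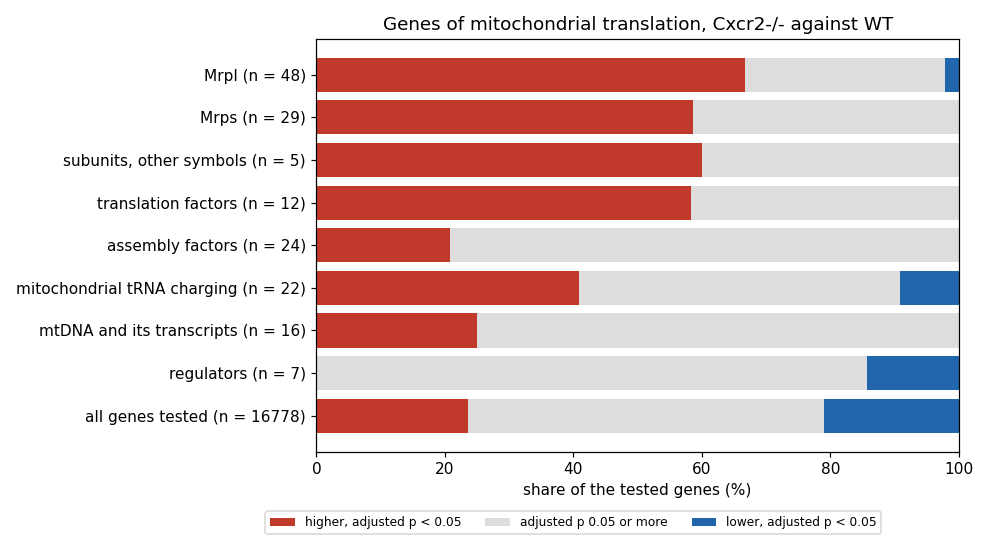
Share of tested genes (x axis, %) that were higher (red), lower (blue) or not passed (grey) in Cxcr2-/- against WT neutrophils for the Mrpl and Mrps genes, the lists of genes that work with them and all 16778 genes tested. Shares higher run from 66.7% for Mrpl to 20.8% for assembly factors and 0% for regulators, against 23.7% of all genes.

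Of the messenger RNAs that this ribosome translates, 7 could be tested, and all 7 rose in edgeR, with a median log2 fold change of 1.48. With DESeq2, total counts, upper-quartile scaling, protein-coding genes alone, at least 10 counts in every library or the replicate block, 6 rose. Of all genes tested 23.7% were higher and 21.0% lower, and of protein-coding genes 29.8% and 20.1%. With the share of pairs outside genes as a covariate 2 of the 7 passed, and mt-Nd6 and mt-Nd5, named next, were not among them (adjusted p = 0.14 and 0.056). The other 6 of the 13 were listed at or near 0 counts in every library and could not be tested. The largest change was that of mt-Nd6, the subunit of complex I coded on the light strand, at 1.04, 0.824, 0.775 and 0.289 CPM in WT and 3.79, 2.79, 17.4 and 2.55 CPM in Cxcr2-/- libraries. Here 1 library, Cxcr2-/- replicate 3, stood far above the others, and the log2 fold change was 3.16 (SE 0.62, adjusted p = 0.0013), or 2.02 without that library. mt-Nd5, another subunit of complex I, went from 29.5 ± 6.02 to 91.6 ± 55.3 CPM (log2 fold change 1.63, SE 0.33, adjusted p = 0.0014), and its log2 fold change was 1.15 without the same library. mt-Nd5 and mt-Nd6 overlap on opposite strands of the mitochondrial genome (chrM:11742-13565 and chrM:13552-14070).

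Many members stand head to head with another gene. A protein-coding gene starts on the other strand within 1000 bases for 18 of the 78 members (23.1%), against 6.77% of all protein-coding genes. Of these 18 members 12 rose (66.7%), near the 37 of 59 tested members without such a gene (62.7%). Of the 17 partners that could be tested 7 rose (41.2%) and 1 fell (5.88%), against 29.8% and 20.1% of protein-coding genes. Mrps12 and Sars2 start 172 bases apart, and both rose. Mrpl51 and Ncapd2, a condensin subunit that packs chromosomes for division, start 100 bases apart, and Ncapd2 went from 17.5 ± 2.19 to 63.7 ± 3.34 CPM (log2 fold change 1.87, SE 0.10, adjusted p = 1.0e-07). Mrpl41 (0.19 on the log2 scale, adjusted p = 0.35) faces Pnpla7, a lysophospholipase, which fell by 0.64 on that scale (adjusted p = 1.7e-04). Ncapd2, Pnpla7 and Mrpl41 were chosen after their values were seen.

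Overlaps and copies touch some of these counts. Exons of 8 members overlap another gene on the same strand and those of 28 overlap a gene on the other strand, in 8 of them over more than 20% of the exon bases. Of the 45 tested members with no such overlap 27 rose and 0 fell, with a median log2 fold change of 0.65. In this group 1 was lower with DESeq2, with total counts and at an unadjusted p under 0.05 in edgeR. With upper-quartile scaling or protein-coding genes alone 2 were lower. Of all genes tested 23.7% were higher and 21.0% lower, and of protein-coding genes 29.8% and 20.1%. Stretches of 100 bases shared with a gene elsewhere in the genome were found in 19 members and made up over 5% of the stretches in 7 of them: Mrpl22, Mrpl23, Mrpl27, Mrps18b, Mrps25, Mrps33 and Mrps36.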

How the data were processed

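Whole-number read-pair counts per gene were deposited by the authors for the 8 libraries, made per the study's methods by trimming reads, aligning them to mm10 with STAR and counting with HTSeq. Gene identifiers carry versions newer than GENCODE M21; the annotation release and the strand setting of the counting are not given in the sources used here. Of the 55414 genes listed, 52133 have an M21 entry, and the other 3281 hold 1.42% of the counts. Positions, exon lengths and overlaps are from GENCODE M21 (GRCm38). Rows for pairs outside genes or otherwise unassigned were left out of library sizes and tests.

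Low genes were removed with filterByExpr, libraries were scaled by TMM, and Cxcr2-/- was compared with WT in edgeR 4.0.16 (R 4.3.3, glmQLFit and glmQLFTest, biological coefficient of variation 0.202), with Benjamini-Hochberg adjustment over 16778 genes and no covariate. The thresholds, an adjusted p under 0.05 and a 1.5-fold change, are those of the study, which used DESeq2; DESeq2 1.42.0 was an alternative here, beside other scalings, filters, covariates and the omission of each library. The scripts were tested on simulated counts. Exact permutation tests used scipy 1.17.1. The depth of 34220182 to 46233555 counts on genes left 3 tested members under 10 counts in their lowest library.

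The members, the gene lists, the markers and the motifs were chosen with earlier results of these data known. Genes were named by rule: in each subunit the 6 largest changes that passed in each direction, the 3 most abundant per kb, the 3 smallest changes, genes removed by the filter and a fixed set of members; from each list the 2 largest changes that passed in each direction. Replicate numbers did not pair the mice: deviations from the group means correlated at 0.15, -0.19, 0.24 and -0.31 between libraries of the same number.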

Additional observations from a re-analysis of the deposited data

Results flagged for a closer look

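In 4 of 102 groups of 4 libraries looked at for the named genes, 1 library stood apart from the other 3 by Dixon's test; chance alone marks about 1 in 20 groups. Mrpl50 was lowest in Cxcr2-/- replicate 1, at 2.07 CPM, with the other 3 Cxcr2-/- libraries between 3.09 and 3.23 CPM. Mrps25 was lowest in the same library, at 4.42 CPM, with the others between 4.67 and 4.70 CPM. mt-Nd6 was highest in Cxcr2-/- replicate 3, at 17.4 CPM, with the others between 2.55 and 3.79 CPM. Myc was lowest in WT replicate 4, at 0.463 CPM, with the others between 1.57 and 1.79 CPM. Neither Mrpl50, Mrps25 nor Myc passed the comparison between genotypes.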

How the results depend on the processing

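Of the 50 members that passed, 49 still did with DESeq2 or RLE scaling, 48 without the filter, with at least 10 counts in every library or with protein-coding genes alone, 46 with total counts, 45 with upper-quartile scaling, 50 with the non-neutrophil covariate, 45 to 50 without 1 library, and 12 with the share of pairs outside genes as a covariate; 0 passed in the other direction under any of these. With that last covariate 9 Mrpl genes were higher and 0 lower (9 higher by 1.5-fold), 3 Mrps genes were higher (3 by 1.5-fold), and over all genes 1597 were higher and 1486 lower (1502 and 1341 by 1.5-fold); the cause was not tested. Upper-quartile scaling moved the median of all genes to -0.11 and the Mrpl median to 0.54, and left 9 Mrps genes higher by 1.5-fold. Lower Mrpl genes numbered 2 with DESeq2 and with total counts (Mrpl33 and Mrpl17) and 3 with upper-quartile scaling and with protein-coding genes alone (also Mrpl4). Leaving out 1 library gave 31 to 35 Mrpl genes higher, 0 to 2 lower, 14 to 19 Mrps genes higher, and medians of 0.59 to 0.71 and 0.60 to 0.70. Replicate numbers do not pair the mice; with the replicate block 48 of the 50 members passed, all but Mrps36 and Mrpl12. The call was lost in 14 of 17 alternatives for Mrps36, in 9 of 17 for Mrps27 and in 9 of 18 for Mrpl12. Low depth limits Mrps27, Mrps36 and Mrps6, each under 10 counts in its lowest library.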

Other observations

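The cytosolic ribosome, which makes the mitochondrial ribosomal proteins, can be set beside the mitochondrial one. Of 82 tested genes for its proteins 54 rose in Cxcr2-/- neutrophils (65.9%) and 1 fell, with a median log2 fold change of 0.52. For the mitochondrial ribosome 49 of 77 rose (63.6%), a similar share, with a median of 0.66. Of all genes tested 23.7% were higher and 21.0% lower, and of protein-coding genes 29.8% and 20.1%. The 2 sets come from the same libraries, and the difference between them was not tested. The genes of the cytosolic ribosome have many processed copies in the mouse genome, so their counts are less certain than those of most genes.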
